A study of Mus musculus with 6 samples.

Results

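Genes that mark the secretory and the ciliated cells of the oviduct were examined in cells of the mouse ovarian surface epithelium, the cell layer that covers the ovary and meets the oviduct epithelium near the fimbria. The set holds 38 genes chosen by name, 6 for secretory and 32 for ciliated cells. On the array, 36 of them had a probe set annotated to that gene alone, out of 22180 such genes, and for the 6 genes among them with more than 1 such probe set the brightest was taken. Ovgp1 and Ccdc39 were represented only by probe sets that are also annotated to a neighbouring gene, and Dnai1 and Dnai2 were found under their older symbols, Dnaic1 and Dnaic2. The mice were Lgr5-eGFP-CreERT2 females, 8 to 12 weeks old, in which a reporter cassette for EGFP and a tamoxifen-dependent Cre stands at the Lgr5 locus. No treatment was given, and there was no group without the allele. Sorting on EGFP gave a high and a low population, with 8 mice pooled per array and 3 arrays per population, which the design text calls technical replicates. Any p-value here thus reflects array-to-array spread, possibly technical, and says nothing of the spread between animals.

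The oviduct is lined by secretory cells, which release glycoproteins into the lumen, and by multiciliated cells, which carry many motile cilia. A motile cilium has an axoneme of microtubule doublets with dynein arms as motors, radial spokes, and a central pair of microtubules that coordinates the beat. Most other cells, surface epithelium included, can form only a non-motile primary cilium, which is built by the same transport machinery but lacks the motor, spoke and central pair parts.

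Values are the deposited log2 expression values, normalised by the authors with RMA. The 6 columns hold 4 independent dimensions: high 2 equals the mean of high 1 and high 3, and low 1 equals the mean of low 2 and low 3 plus 0.75 times high 3 minus high 1, both within a tolerance of 2e-04. By algebra, subtracting low 1 from high 3 gives the difference of group means for any gene, and the 6 readings of a gene are not 6 separate ones. Removing 3 array sets (high 2 alone, high 1 with low 1, and high 3 with the other low arrays) by least squares produces exactly these relations. The sets are inferred from the values and appear in no label. The main test is limma with the population and the array set as terms, which leaves 2 residual degrees of freedom. The same fit without the array-set term has 4 and is given beside it. As the columns hold only 4 independent dimensions, 4 residual degrees of freedom overstate what they hold. The p-values without the array-set term therefore tend to be too small. Lgr5, on whose locus the cells were sorted, read 7.84, 7.76 and 8.01 on the low arrays and 8.996, 8.97 and 8.94 on the high arrays. Its difference was 1.10 (95% limits 0.62 to 1.57). The limma adjusted p for Lgr5 was 0.751 with the array-set term and 0.015 without it. The main test thus did not call even the sorted locus, and a gene not called is not shown to be unchanged. The labelled tissue was checked on 20 surface epithelium and mesothelium markers. Krt8, Krt18 and Wt1 read between 8.52 and 11.10 on the 6 arrays. All 20 markers had means above the 95th percentile of the receptor genes described next.

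The value table carries no detection call. As a description of readings where no expression is known for this tissue, 1394 olfactory and vomeronasal receptor genes were used, whose means over the 6 arrays had a median of 2.03 and a 95th percentile of 3.85. A value above that percentile is called above the receptor range here, and any other is called within it, although some receptor genes lie above it. A mean below that percentile does not show that a gene is silent, because probe sets differ in how strongly they bind. Of the 36 genes, 12 (33.3%) had a mean above the receptor 95th percentile, against 54.9% of all genes. The 12 were Cd24a and Wfdc2 among the secretory genes, and Rfx2, Rfx3, Ccdc40, Rsph1, Rsph4a, Rsph9, Hydin, Tekt2, Tppp3 and Mlf1 among the ciliary genes. Hydin at 3.90 and Tekt2 at 3.897 passed it narrowly. The other 24 lay inside the receptor range, among them the oviduct lineage factors Pax8 and Pax2, the ciliary master regulator Foxj1, and 7 of the 8 dynein arm and ruler genes that could be measured.

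**Figure D1:**
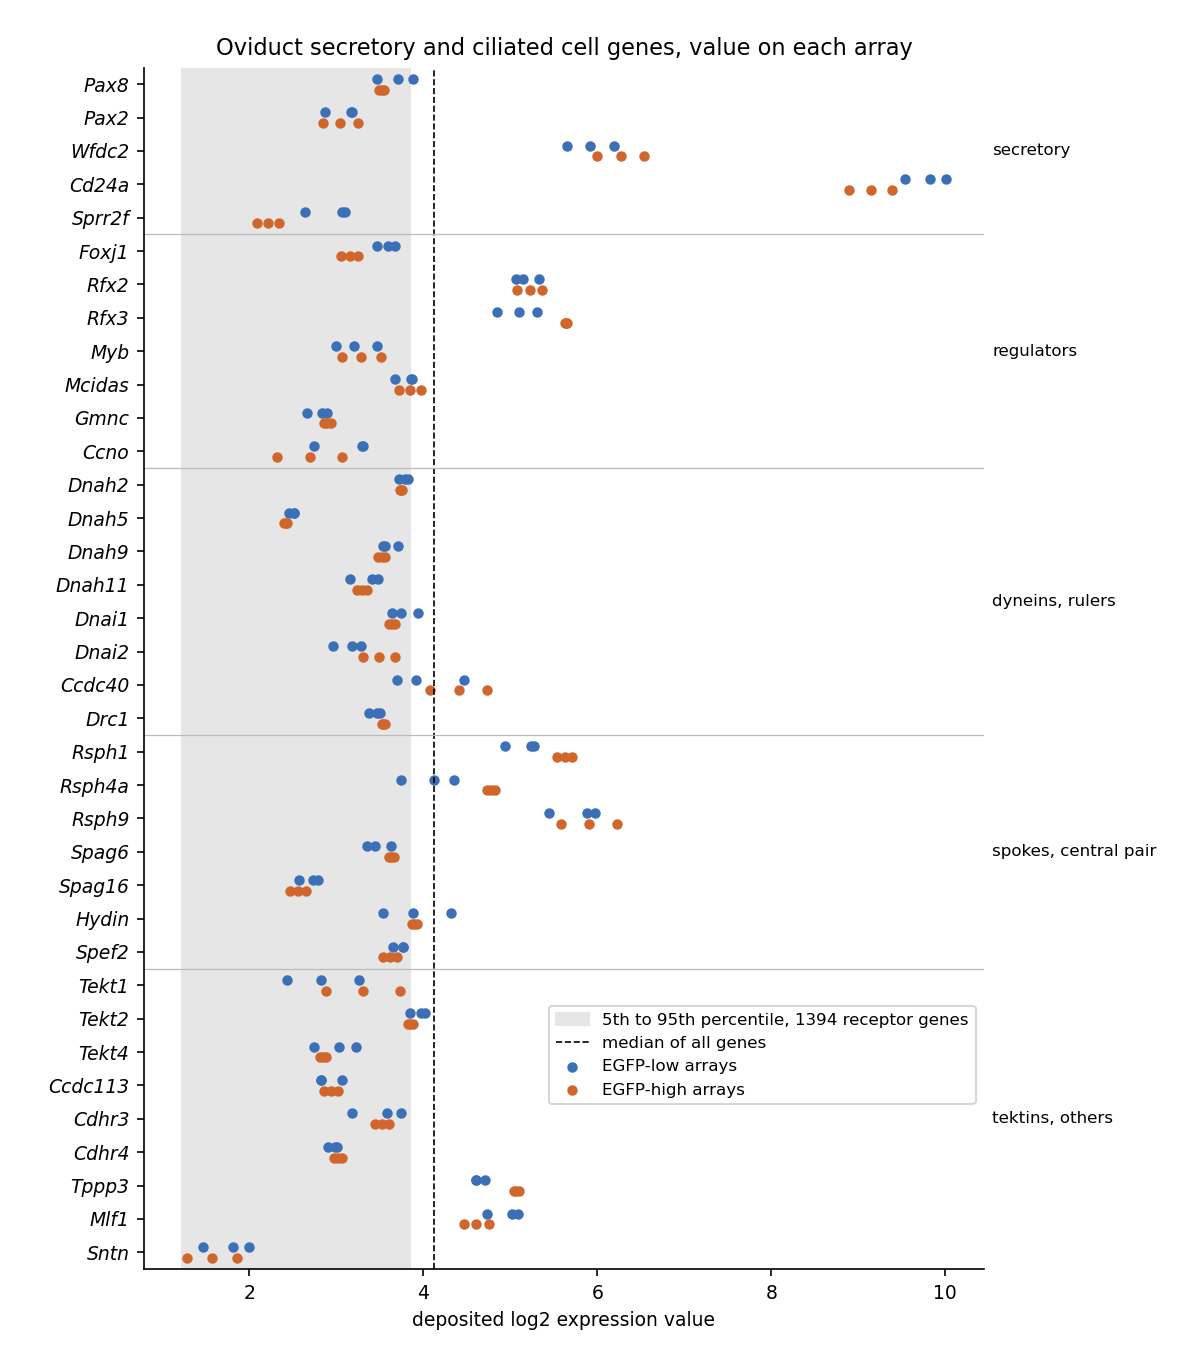
Deposited log2 expression value (horizontal axis) of the 36 genes on each of the 6 arrays, with EGFP-low arrays in blue and EGFP-high arrays in orange, in role groups. The grey band spans the 5th to 95th percentile of the means of 1394 receptor genes (1.23 to 3.85) and the dashed line is the median of all genes (4.13). Cd24a and Wfdc2 lie to the right of the band, and most ciliary genes lie within the band.

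Between the 2 populations, limma with the array-set term called 0 of the 36 genes at an adjusted p of 0.05, where it called 0 genes higher (0%) and 1 lower (0.00451%) of the 22180. The smallest adjusted p in the set was 0.816. At an unadjusted p under 0.05 there were 4 of 36, Sprr2f, Rsph4a, Cd24a and Rfx3, against 5.92% of all genes. Without the array-set term, where p-values tend to be too small, limma called 1 gene of the set higher, Tppp3 (adjusted p = 0.028). Of all genes it called 3.9% higher. It called 2 lower, Sprr2f (adjusted p = 0.045) and Foxj1 (adjusted p = 0.048), where 2.77% of all genes were called lower, 6.67% in either direction. By size, 1 gene was at least 1.5-fold higher in the EGFP-high cells (2.19% of all genes) and 2 were at least 1.5-fold lower (2.7% of all genes), against 4.89% of all genes in either direction. The median difference over the 36 genes was 0.00 on the log2 scale, with 18 above 0 and 18 below, against 0.02 over all genes. The ranges of the populations were separate for 6 genes that read higher in the EGFP-high cells, Rfx3, Dnai2, Drc1, Rsph1, Rsph4a and Tppp3 (19.3% of all genes). They were separate for 4 that read lower, Cd24a, Sprr2f, Foxj1 and Dnah5 (13.9% of all genes), so that 10 of 36 stand against 33.2% of all genes in either direction.

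**Figure D2:**
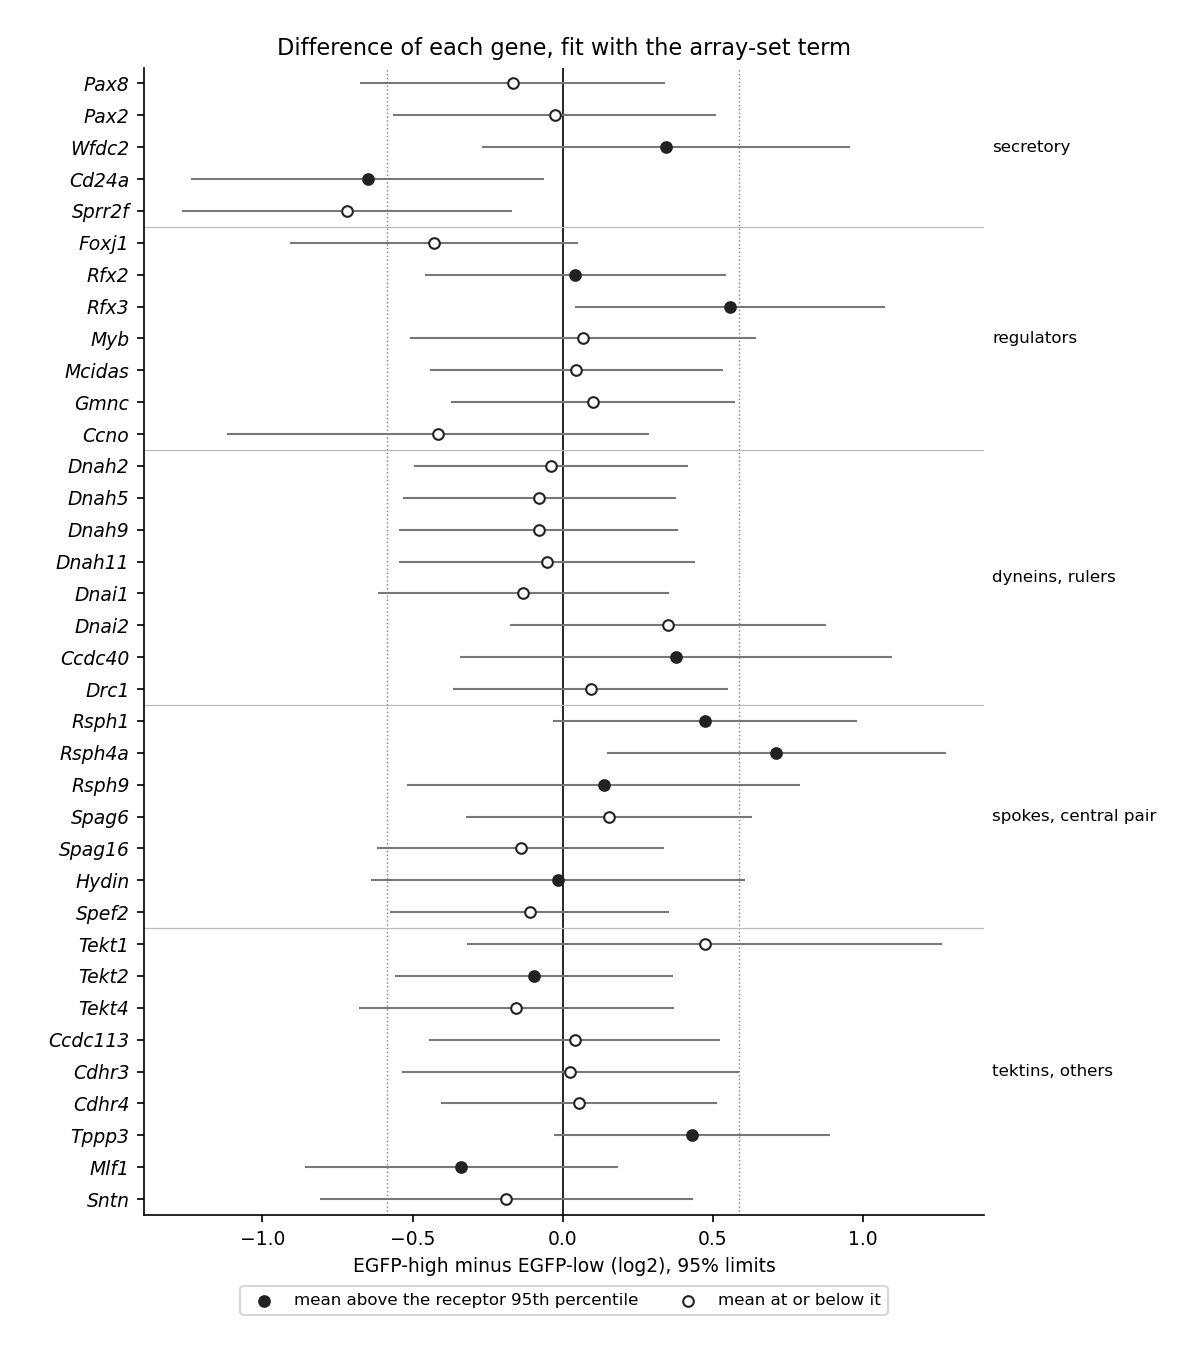
EGFP-high minus EGFP-low on the log2 scale (points) with 95% limits from limma with the array-set term (lines) for the 36 genes. Filled points have a mean above the receptor 95th percentile, and dotted lines mark 1.5-fold. The limits of 32 genes span 0, and the exceptions are Cd24a and Sprr2f on the left and Rfx3 and Rsph4a on the right.

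Among the secretory genes, Cd24a was above the receptor range on every array and read lower in the EGFP-high cells. It encodes a small glycoprotein anchored to the cell surface, found on many epithelial and blood cells as well as on oviduct epithelium. Its probe set read 9.54, 10.01 and 9.83 on low arrays 1 to 3 and 9.39, 9.14 and 8.89 on high arrays 1 to 3. The groups did not overlap, but low 1 and high 1 lay 0.15 apart while high 3 lay 1.03 below the other low arrays on average. The difference was −0.65 (95% limits −1.24 to −0.06), a 1.57-fold lower value, with limma adjusted p = 0.837. A dimmer Cd24a probe set differed by −0.47 (−1.18 to 0.23) and its groups overlapped. The authors' deposited table lists the brighter probe set with a ratio of 0.623. Cd24a is carried by leukocytes too, and 16 of 17 leukocyte markers were below 0 (8 of them by at least 1.5-fold). Their median difference was −0.56 (range −3.77 to 0.07), and 9 of the 17 (52.9%) had means above the receptor 95th percentile. The mean log2 reading over that list ran from 3.86 to 4.63 on the low arrays and from 3.36 to 3.50 on the high arrays. The list's pan-leukocyte gene Ptprc lay within the receptor range, at 2.23 to 2.66 on the low and 2.04 to 2.08 on the high arrays. Lists for other ovarian cells went different ways. Below 0 were 10 of 12 stroma genes (median −0.31, range −3.08 to 0.53) and 7 of 10 granulosa genes (median −0.37, range −2.29 to 0.28). So were 4 of 6 theca and luteal genes (median −0.15, range −4.74 to 0.33) and 7 of 13 oocyte genes (median −0.05, range −1.93 to 0.43). The counts were 5 of 10 for endothelial genes (median −0.01, range −0.69 to 0.29) and 3 of 8 for smooth muscle genes (median 0.04). At least 1.5-fold lower were 5 granulosa, 4 oocyte, 2 stroma, 2 theca and luteal, 2 endothelial and 0 smooth muscle genes (2.7% of all genes). The 1 gene that limma called with the array-set term was a theca and luteal gene. Of the 20 surface epithelium and mesothelium markers, 2 were below 0 and 18 above (median 0.21). The list means ran from 4.67 to 5.06 on low and from 4.36 to 4.39 on high arrays for stroma, from 4.95 to 5.26 and from 4.27 to 4.66 for granulosa, and from 6.25 to 6.58 and from 4.99 to 5.34 for theca and luteal genes. They ran from 3.68 to 3.74 and from 3.40 to 3.45 for oocyte, from 3.70 to 3.802 and from 3.66 to 3.68 for endothelial, and from 4.02 to 4.17 and from 4.02 to 4.20 for smooth muscle genes. The part of these cells in the Cd24a difference was not tested, and in such sorted bulk samples fewer cells of a type and less RNA per cell cannot be told apart.

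Wfdc2, a secreted whey-acidic-protein family member that is used as a serum marker of ovarian cancer in people, was the other secretory gene above the receptor range. Its values were 5.66, 6.19 and 5.92 on the low arrays and 6.54, 6.27 and 6.001 on the high arrays. The groups overlapped and the difference was 0.34 (−0.27 to 0.96). Nearly all of it came from 1 pair of arrays: high 1 exceeded low 1 by 0.88, whereas high 3 differed from low 2 and low 3 by −0.06.

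Sprr2f, a small proline-rich protein that oestrogen induces in the mouse uterus, had the most negative difference of the 36 genes. It read 3.06, 3.09 and 2.64 on the low arrays and 2.08, 2.21 and 2.34 on the high arrays, so that the groups did not overlap while every reading stayed below the receptor 95th percentile. The difference was −0.72 (−1.27 to −0.17; limma adjusted p = 0.816), and the authors' deposited table gives a ratio of 0.606. The Sprr2 genes are close relatives, and a probe set shared by Sprr2f, Sprr2i and Sprr2e read between 1.06 and 1.32 on all 6 arrays and differed by −0.13 (−0.65 to 0.38).

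The transcription factors Pax8 and Pax2, which specify the epithelium of the Müllerian and Wolffian ducts and mark oviduct secretory cells, showed no such separation. Pax8 read 3.71, 3.88 and 3.47 on the low and 3.50, 3.52 and 3.55 on the high arrays, a difference of −0.17 (−0.67 to 0.34). Pax2 read 2.87, 3.18 and 3.17 against 3.25, 3.05 and 2.84, a difference of −0.03 (−0.57 to 0.51). The groups overlapped for both genes, and none of the 6 readings of either passed the receptor 95th percentile of its array. For Ovgp1, the oviduct-specific glycoprotein, only the probe set shared with Wdr77 could be read. It gave 2.33, 2.02 and 2.11 on the low arrays and 2.02, 2.19 and 2.37 on the high arrays, near the receptor median.

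The multiciliation regulators act in sequence, and the factors that open the programme lay within the receptor range. Gmnc and Mcidas encode geminin-related coactivators that start multiciliated cell fate. Gmnc read 2.83, 2.66 and 2.90 on the low and 2.86, 2.90 and 2.93 on the high arrays, with a difference of 0.10 (−0.37 to 0.57). Mcidas read 3.67, 3.85 and 3.87 against 3.97, 3.84 and 3.72, with a difference of 0.05 (−0.44 to 0.53). Of its 6 readings, 2 passed the receptor 95th percentile of their array, those on high 1 and high 2. That percentile ran from 3.93 to 4.03 on the low arrays and from 3.81 to 3.87 on the high arrays. Ccno, a cyclin-like protein needed for the mass production of centrioles, is a neighbour of Mcidas on chromosome 13. It read 2.74, 3.29 and 3.30 against 3.07, 2.70 and 2.32, and its difference of −0.42 had wide limits (−1.12 to 0.29). Myb, which acts early in the same programme and is also a factor of blood progenitors, read 2.995, 3.20 and 3.47 against 3.51, 3.29 and 3.06, a difference of 0.07 (−0.51 to 0.64), and its second probe set differed by −0.29 (−0.87 to 0.29). The groups overlapped for these 4 genes.

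Foxj1, the forkhead factor that switches on genes of the motile axoneme, read 3.68, 3.47 and 3.595 on the low arrays and 3.05, 3.15 and 3.25 on the high arrays. All 3 high readings were below all 3 low readings, and all 6 were below the receptor 95th percentile. Its difference was −0.43 (−0.91 to 0.05), with limma adjusted p = 0.848.

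The RFX factors bind the X-box in promoters of ciliary genes and serve primary as well as motile cilia. Both were above the receptor range on all 6 arrays. Rfx2 read 5.33, 5.06 and 5.15 on the low and 5.07, 5.22 and 5.37 on the high arrays and differed by 0.04 (−0.46 to 0.54). Rfx3 read 5.10, 4.84 and 5.30 on the low arrays and 5.62, 5.64 and 5.66 on the high arrays, without overlap. Its difference was 0.56 (0.04 to 1.07; limma adjusted p = 0.840), and it was of similar size in both array sets, at 0.52 and 0.58. Rfx3 and Foxj1 read in opposite directions, and limma with the array-set term called neither. Foxj1 lay at or below the receptor 95th percentile. Of all genes there, 59.2% were below 0, and 19.4% had separate ranges with the high arrays lower. Rfx3 lay above it. Of all genes there, 64.4% were above 0, and 26.2% had separate ranges with the high arrays higher.

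Because the RFX factors were the regulators above the receptor range, the promoters of the set were searched for the core letters of the X-box, GTTGCC on either strand, in the RefSeq windows of GRCm38.p6, which run from 250 bases before to 50 bases after the start of each gene. Windows were found for 33 of the 38 genes, and Cd24a, Foxj1, Rsph1, Rsph4a and Tppp3 had none. The letters stood in 18 of 28 ciliary genes and in 0 of 5 secretory genes. By window this was 19 of 32 ciliary windows (59.4%), against 12.5% of all 32851 windows. The forkhead letters GTAAACA, searched in the same way, stood in 3 of the 32 ciliary windows (9.38%) and in 3.65% of all windows. The searches do not overlap in letters. A match is a description of the sequence and not a bound site. In 8 ciliary genes the X-box letters lay within the 60 bases before the start, which are printed 5′ to 3′ on the gene's strand with those letters in capitals, so that this recurrence can be seen.
Ccdc113, chr8:95534040-95534099, plus strand: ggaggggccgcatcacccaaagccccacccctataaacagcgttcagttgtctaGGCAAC
Cdhr3, chr12:33092876-33092935, minus strand: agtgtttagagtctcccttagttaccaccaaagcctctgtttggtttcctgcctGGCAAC
Dnai2, chr11:114727359-114727418, plus strand: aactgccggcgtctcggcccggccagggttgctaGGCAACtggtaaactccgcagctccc
Drc1, chr5:30281333-30281392, plus strand: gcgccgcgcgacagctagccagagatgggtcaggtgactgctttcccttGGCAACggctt
Hydin, chr8:110266917-110266976, plus strand: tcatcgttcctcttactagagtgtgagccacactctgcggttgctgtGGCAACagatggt
Spag6, chr2:18698962-18699021, plus strand: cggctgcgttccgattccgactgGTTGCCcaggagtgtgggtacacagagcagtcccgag
Tekt1, chr11:72361883-72361942, minus strand: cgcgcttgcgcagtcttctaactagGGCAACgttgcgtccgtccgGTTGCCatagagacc
Tekt2, chr4:126325689-126325748, minus strand: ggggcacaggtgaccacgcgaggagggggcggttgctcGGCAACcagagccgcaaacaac

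These 8 genes encode proteins of different kinds, from dynein, nexin link, central pair and tektin proteins to the cadherin-related membrane protein Cdhr3. The mean readings of 6 of them lay within the receptor range, Hydin and Tekt2 being the exceptions. In Tekt1 the letters occurred in both orientations, 35 and 15 bases before the start. Rfx2 itself and Mlf1, both above the receptor range, carried the letters farther out, 116 and 105 bases before the start. Rfx3, Cdhr4, Spef2 and Tekt4 carried the letters too, but not wholly within the 250 bases before the start. For Rfx2 and Mlf1 these 250 bases are printed with the X-box letters and, in Mlf1, the forkhead letters (TGTTTAC) in capitals.
Mlf1, chr3:67373847-67374096, plus strand: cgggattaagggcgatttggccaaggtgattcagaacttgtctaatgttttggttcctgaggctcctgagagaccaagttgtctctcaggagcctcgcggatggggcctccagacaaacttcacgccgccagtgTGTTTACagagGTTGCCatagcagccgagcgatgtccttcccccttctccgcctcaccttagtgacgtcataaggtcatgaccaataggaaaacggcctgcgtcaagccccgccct
Rfx2, chr17:56831009-56831258, minus strand: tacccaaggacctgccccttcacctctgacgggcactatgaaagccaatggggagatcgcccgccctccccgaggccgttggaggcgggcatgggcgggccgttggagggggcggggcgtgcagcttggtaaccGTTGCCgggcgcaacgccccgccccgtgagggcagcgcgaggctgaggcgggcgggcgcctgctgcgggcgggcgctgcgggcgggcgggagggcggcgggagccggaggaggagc

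By the letters, the median difference was 0.03 over the 18 ciliary genes with them and −0.04 over the 9 genes without them that had a probe set of their own. It was 0.45 over the 4 ciliary genes with no promoter entry, Foxj1, Rsph1, Rsph4a and Tppp3. The difference between genes with and without the letters was not tested.

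Among the dynein arm and ruler genes, most readings lay within the receptor range in both populations. Dnah5, Dnah9 and Dnah11 encode heavy chains of the outer arm, Dnah2 a heavy chain of an inner arm, and Drc1 a part of the nexin link that regulates dynein. The differences of these 5 genes lay between −0.08 and 0.09, and none of their readings passed the receptor 95th percentile. Dnai1, an intermediate chain of the outer arm, read 3.74, 3.64 and 3.94 on the low and 3.68, 3.64 and 3.61 on the high arrays, a difference of −0.13 (−0.62 to 0.35). Its partner Dnai2 read 2.96, 3.29 and 3.18 against 3.68, 3.49 and 3.31, with no overlap and a difference of 0.35 (−0.18 to 0.88). Ccdc40, which with Ccdc39 forms the ruler that spaces dynein arms and spokes along the doublet, was the 1 gene of this group above the receptor range. It read 3.70, 4.47 and 3.92 on the low arrays and 4.73, 4.41 and 4.08 on the high arrays. The groups overlapped, and the difference of 0.38 (−0.34 to 1.10) combined 1.03 between high 1 and low 1 with −0.12 in the other array set. The probe set shared by Ccdc39 and Ttc14 read 4.25, 4.29 and 4.19 on the low arrays and 3.796, 3.805 and 3.815 on the high arrays, without overlap. Its difference of −0.44 (−0.94 to 0.06) had limma adjusted p = 0.958 over all 41345 probe sets. Without the array-set term it was called lower (adjusted p = 0.035), as were 2.11% of all probe sets. The difference cannot be assigned to either gene.

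The radial spoke head genes read higher than the receptor range. Rsph1, Rsph4a and Rsph9 encode proteins of the spoke head, the end that contacts the central pair. Rsph4a had the largest positive difference of the 36 genes. It read 4.12, 4.35 and 3.74 on the low arrays and 4.73, 4.78 and 4.83 on the high arrays, without overlap, and 5 of its 6 readings passed the receptor 95th percentile of their array. The difference was 0.71 (0.15 to 1.27), 1.64-fold, with limma adjusted p = 0.816. In the authors' deposited table its ratio was 1.72.

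Rsph1 read 5.24, 5.28 and 4.94 on the low and 5.53, 5.62 and 5.71 on the high arrays, again without overlap, and differed by 0.47 (−0.03 to 0.98). Rsph9 read 5.44, 5.88 and 5.97 against 6.23, 5.90 and 5.58. Its groups overlapped and its difference was 0.14 (−0.52 to 0.79), with 0.79 in the array set of low 1 and −0.35 in the other. The spoke head genes as a trio therefore did not share 1 pattern across arrays.

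The central pair genes stayed near or within the receptor range. Hydin, a very large central pair protein whose loss causes hydrocephalus in mice, read 3.89, 4.32 and 3.53 on the low and 3.92, 3.90 and 3.87 on the high arrays, a difference of −0.02 (−0.64 to 0.61). Spag16 had the lowest difference of the spoke and central pair group, with 2.79, 2.57 and 2.73 against 2.46, 2.56 and 2.65 and a difference of −0.14 (−0.62 to 0.34). Spag6 differed by 0.15 (−0.32 to 0.63) and Spef2 by −0.11 (−0.58 to 0.35), and groups overlapped for all 4. Second probe sets of Spag6 and Hydin were dimmer and differed by −0.20 (−0.74 to 0.34) and −0.02 (−0.54 to 0.50). The mouse has a close relative of Spag6, Spag6l, so the reading of Spag6 is uncertain.

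In the remaining group, only Tppp3 had separate ranges. It belongs to a family of proteins that bundle and stabilise microtubules and is abundant in ciliated epithelia, though not restricted to them. It read 4.61, 4.60 and 4.71 on the low arrays and 5.10, 5.07 and 5.04 on the high arrays. The groups did not overlap, and the difference was 0.43 (−0.03 to 0.89; limma adjusted p = 0.846). It was 0.49 and 0.38 in the 2 array sets. The SDs were 0.06 and 0.03 over 3 readings each. Because high 2 and low 1 are fixed by other columns, they are not spreads of 3 separate readings.

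Mlf1, a cytoplasmic adaptor that is enriched in ciliated cells, read 5.09, 4.73 and 5.01 on the low and 4.46, 4.61 and 4.75 on the high arrays. Its groups overlapped, since high 3 exceeded low 2, and its difference was −0.34 (−0.86 to 0.18). Tekt1 encodes a filament protein inside the doublet microtubules and had the largest positive value of this group. It read 3.26, 2.82 and 2.43 against 2.88, 3.31 and 3.74, a difference of 0.47 with wide limits (−0.32 to 1.26). The array sets disagreed in sign for it, at −0.38 and 1.11. Its relative Tekt2 read 3.97, 3.84 and 4.02 against 3.82, 3.85 and 3.88, a difference of −0.10 (−0.56 to 0.37). Tekt4, Ccdc113, Cdhr3, Cdhr4 and Sntn, a protein of the ciliary tip, had differences between −0.19 and 0.05 and means within the receptor range. Sntn ran from 1.28 to 1.99 over the 6 arrays. Second probe sets of Tekt2 and Dnah2 differed by 0.01 (−0.65 to 0.68) and 0.04 (−0.61 to 0.68).

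How far the genes repeat between the inferred array sets was read from the contrasts high 1 minus low 1 and high 3 minus the average of the other low arrays. The sign was the same in 20 of 36 genes, against 55.1% of all genes. The 4 genes Rfx3, Rsph1, Rsph4a and Tppp3 were higher by 0.296 to 0.78 in both contrasts, while Sprr2f (−0.98 and −0.52), Foxj1 (−0.63 and −0.28) and Cd24a (−0.15 and −1.03) were lower in both. Wfdc2, Ccdc40, Rsph9, Ccno and Tekt1 had contrasts of opposite sign.

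**Figure D3:**
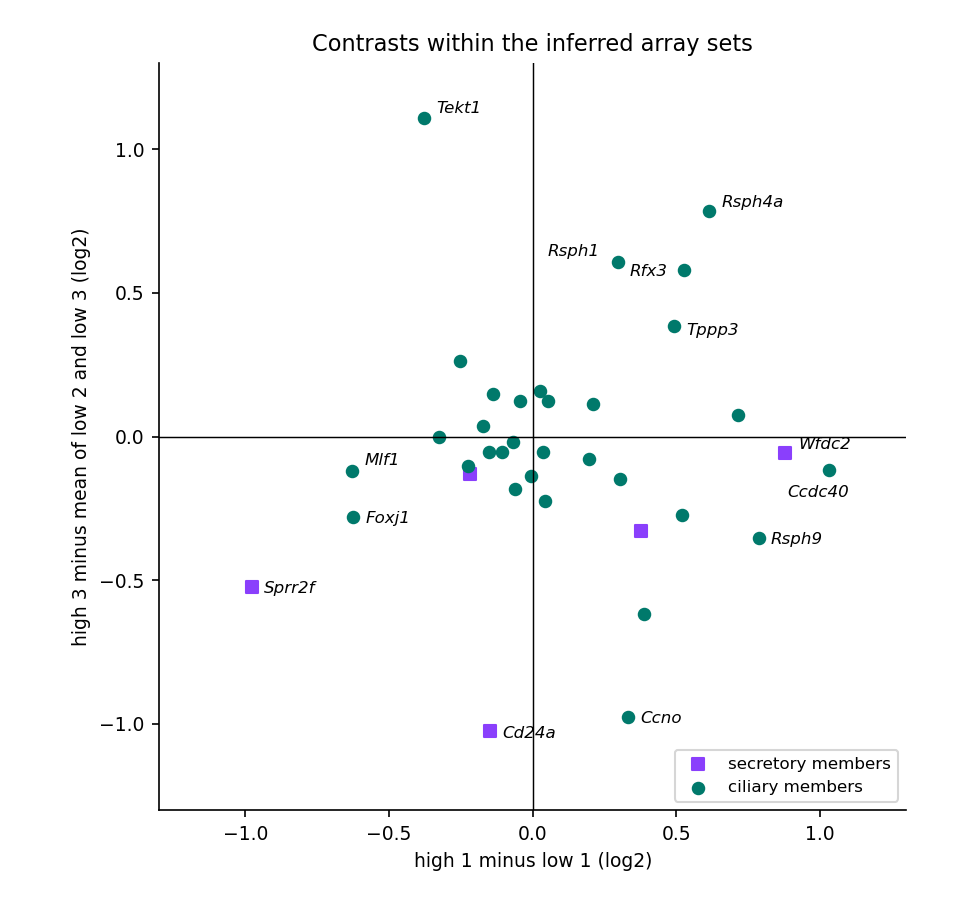
High 1 minus low 1 (horizontal axis) against high 3 minus the average of the other low arrays (vertical axis), both on the log2 scale, for 5 secretory genes (squares) and 31 ciliary genes (circles). Rfx3, Rsph1, Rsph4a and Tppp3 lie in the upper right and Sprr2f, Foxj1 and Cd24a in the lower left, while Tekt1, Ccno and Rsph9 change sign between the axes.

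By class, the 5 secretory genes had a median difference of −0.17, with 1 above 0 and 4 below. The 31 ciliary genes had a median of 0.04, with 17 above 0 and 14 below. Over the 10 ciliary genes above the receptor 95th percentile the median was 0.26, with 7 above 0, and over all 12184 genes above it the median was 0.09, with 64.4% above 0. Over the 21 other ciliary genes the median was −0.04, with 10 above 0, and over all 9996 genes at or below the percentile it was −0.06, with 40.8% above 0. The difference between these groups of ciliary genes was not tested.

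A wider list of 86 other motile cilium genes, 69 of them measurable, was read in the same way. Their median difference was 0.04, with 39 above 0 and 30 below. A mean above the receptor 95th percentile was found for 25 (36.2%). Limma called 0 of them with the array-set term (7 at an unadjusted p under 0.05, or 10.1%, against 5.92% of all genes). Without it, limma called 7 higher (10.1%, against 3.9% of all genes) and 2 lower (2.90%, against 2.77%). The largest differences were in Ccdc65, a nexin link protein (0.90, 0.34 to 1.47), and in the dynein arm assembly factors Dnaaf4 (0.69, 0.16 to 1.21) and Dnaaf1 (0.58, 0.03 to 1.12). Ccdc65 read 2.60, 3.03 and 2.83 on the low arrays and 3.94, 3.72 and 3.50 on the high arrays, so that the groups were apart but the mean over arrays lay within the receptor range.

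**Figure D4:**
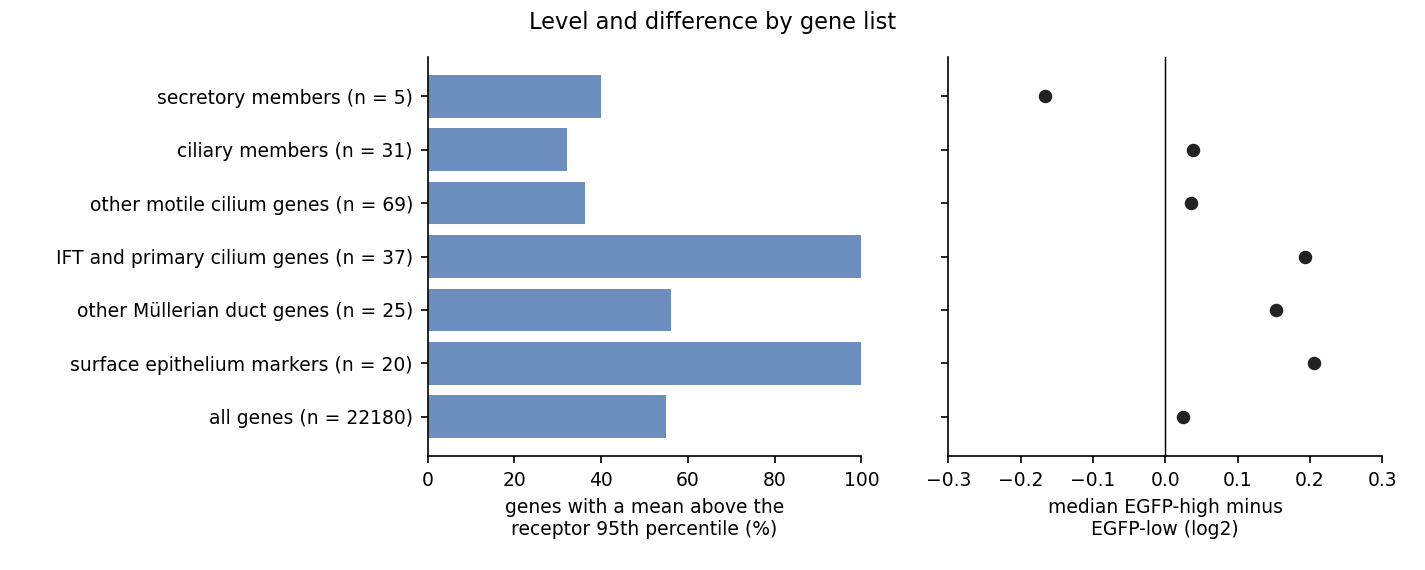
Share of genes with a mean above the receptor 95th percentile (bars, percent) and median EGFP-high minus EGFP-low difference (points, log2) for the secretory and ciliary genes, other lists and all genes, with the number measured in brackets. The ciliary genes (32.3%) and the other motile cilium genes (36.2%) lie below all genes (54.9%), while all 37 intraflagellar transport and primary cilium genes and all 20 surface epithelium markers lie above the percentile.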

How the data were processed

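Per the labels, RNA of each pool was amplified and hybridised to an Affymetrix Mouse Gene ST 2.0 array. The log2 values deposited by the authors cover 41345 probe sets and 6 arrays. Per the submitters' processing notes they used Affymetrix Expression Console and RMA, without versions. The genome build is not given in the sources used here. Their deposited comparison table gives linear ratios for 1134 probe sets, and 3 members are in it. Every value column had a sample (0 without). Genes were named from the platform annotation (23521 probe sets with 1 symbol, 1820 with several, 16004 unlisted), and older symbols were matched through RefSeq. No filter and no further normalization was applied. Differences were tested with limma 3.58.1 under R 4.3.3, by eBayes after lmFit, with two-sided p-values adjusted by Benjamini-Hochberg over 22180 genes. The fits were tested on simulated data with independent arrays, which do not carry the column relations. With 3 arrays per group, an exact permutation test cannot go below p = 0.10, and the column relations make its premise doubtful, so it was not used. The number of arrays limits the precision. Members and lists were chosen with earlier results of these data known. All 38 members were accounted for, and array values were given for secretory genes, regulators, members past 1.5-fold or above the receptor percentile, and the extremes of each group. For other lists up to 3 genes with the largest differences were named; Lgr5, Krt8, Krt18 and Wt1 were fixed by name, and Ptprc, Dnai2 and the remaining members were named after their values were seen.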

Additional observations from a re-analysis of the deposited data

How the results depend on the processing

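With limma, no member was past the adjusted threshold under any of the alternatives with an array-set term or a replicate block. Without the array-set term 1 was higher and 2 were lower. The fit with the replicate number as a replicate block called 0 members (1 gene higher and 3 lower over all genes). Whether the numbers pair the arrays could not be read from the values, because the column relations alone fix the correlation of the deviations of low 1 at −1 with those of high 1 and at 1 with those of high 3, and leave high 2 with none. Leaving out 1 array at a time, 0 members were called, between 1 and 5 were at least 1.5-fold higher and between 1 and 3 lower. Without high 3 there were 5 higher, without low 1 or high 1 (the same fit) 3, and without low 2 there were 2 higher and 1 lower. Medians ran from −0.33 to −0.069 for secretory, from −0.0547 to 0.0606 for ciliary and from 0.00559 to 0.0663 for other motile cilium genes. Quantile normalization gave 0.0973 for ciliary and 0.0921 for other motile cilium genes, against 0.0384 for all genes. Median centring gave 0.095 and 0.0914, against 0.0808 for all genes, with 2 members at least 1.5-fold higher. Genes above the median brightness left 10 members, 1 of them at least 1.5-fold lower. Rsph4a was among those kept and stayed at least 1.5-fold higher. The medians were then 0.40 for ciliary and 0.25 for other motile cilium genes, against 0.0968 over all genes kept. Averaging probe sets left 1 member at least 1.5-fold lower. Cd24a ranged from −1.03 to −0.15, Sprr2f from −0.98 to −0.52, Foxj1 from −0.63 to −0.28, Rfx3 from 0.44 to 0.67, Rsph4a from 0.55 to 0.85 and Tppp3 from 0.38 to 0.49, each keeping its sign. Leaving out high 3 leaves high 1 minus low 1, and leaving out low 1 or high 1 leaves the other array-set contrast. The group-only and replicate-block fits and the fit without high 2 return the main difference by construction. These ranges thus partly repeat the contrasts given above. In all, 18 members changed sign under some alternative, among them Wfdc2 (−0.06 to 0.88), Ccdc40 (−0.12 to 1.03), Rsph9 (−0.35 to 0.79) and Tekt1 (−0.38 to 1.11). Over all 22180 genes, limma called 0 higher and 1 lower with the array-set term, 865 and 614 without it, 23 lower without high 3, 3 lower without low 3, and 0 with probe sets averaged (1337 at an unadjusted p under 0.05). The causes were not tested. Most members lie at readings where signal over background limits what a difference can show.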

Other observations

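Genes of the machinery shared by primary and motile cilia were measurable above the receptor range. Of 40 intraflagellar transport and primary cilium genes, 37 could be measured and all 37 had means above the receptor 95th percentile. Their median difference was 0.19, with 33 above 0 (89.2%) and 4 below, against a median of 0.09 and 64.4% above 0 over all genes above that percentile. Arrays did not overlap for 18 (48.6%), all higher in the EGFP-high cells, against 26.2% of all genes above the percentile. Limma called 0 of them with the array-set term (3 at an unadjusted p under 0.05, or 8.11%, against 6.39%) and 5 without it, all higher (13.5%, against 5.42%). Ift81, a subunit that carries tubulin, read 4.92, 4.78 and 5.08 on the low arrays and 5.51, 5.50 and 5.50 on the high arrays (difference 0.57, 0.09 to 1.05). Wdr35, of the return transport complex, differed by 0.53 (−0.16 to 1.22) and the transition zone protein B9d1 by 0.48 (0.02 to 0.95). The 20 surface epithelium and mesothelium markers, all above the percentile too, had a median difference of 0.21, with 18 above 0 (90%). For 12 of these markers (60%, against 26.2% of all genes above the percentile) arrays did not overlap and were higher in the EGFP-high cells. For 1 marker (5%, against 9.30%) they did not overlap and were lower. The difference between the 2 lists was not tested.

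Other genes of Müllerian duct epithelium went both ways. Of 25 measured, 14 were above the receptor 95th percentile (56%, against 54.9% of all genes). The median difference was 0.15 (0.02 over all genes), with 15 above 0 (60%, against 53.8% of all genes). The tight junction gene Cldn10 was 0.55 higher (0.07 to 1.03) and Cdh1, E-cadherin, 0.54 higher (0.09 to 0.998), whereas Cldn4, another claudin, differed by −0.54 (−1.02 to −0.05). None passed the adjusted threshold of limma with the array-set term (0 of 25). At an unadjusted p under 0.05 there were 3 (12%, against 5.92% of all genes). Without the array-set term, limma called 4 higher (16%, against 3.9% of all genes) and 1 lower (4%, against 2.77%).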
